A study of Mus musculus with 15 samples.

Results

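The 10 genes Col1a1, Col1a2, Col3a1, Col5a1, Col5a2, Col5a3, Col6a1, Col6a2, Col6a3 and Col14a1 were followed in mouse hearts with and without chronic kidney disease (CKD). They were chosen by symbol as chains of fibril-forming and fibril-associated collagens, with earlier results of these data known, and all 10 of them were found among the 17447 genes counted. Heart RNA of 15 male mice on the C57BL/6J background, aged 6 to 8 weeks at the start, was sequenced 18 weeks after surgery, with 3 libraries in each of 5 groups. WTSHAM hearts came from wild-type mice after a sham operation. WTCKD hearts came from wild-type mice with CKD made by a 5/6 nephrectomy in 2 operations, and these mice received the vector into the tail vein in week 2. WTCKD + RNLS mice were wild-type mice with CKD that received AAV9-cTnT-RNLS in its place, a virus in which the cardiomyocyte troponin T promoter drives renalase (RNLS), so that cells other than cardiomyocytes were not the target. KOCKD and KOCKD + RNLS mice carried a rnls-/- deletion made with a TALEN at exon 4, had CKD, and received the vector or the virus in the same way. No knockout library without CKD was analysed here, and every CKD group had received vector or virus, whereas the labels give the WTSHAM group only the sham operation.

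Collagens are triple-helical proteins of the extracellular matrix, built from 3 chains each. Types I and III form the thick fibrils that carry tension between cardiac muscle bundles, and type V copolymerises with type I and limits fibril diameter. Type VI makes beaded microfibrils that link cells to the fibrils, and type XIV, a fibril-associated collagen with interrupted triple helices, binds the fibril surface. In the heart, fibroblasts are the main source of these chains, and their accumulation is the hallmark of cardiac fibrosis.

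The 7 chains with a RefSeq promoter sequence in the table used (build GRCm38.p6) were Col1a2, Col3a1, Col5a1, Col5a3, Col6a1, Col6a2 and Col6a3. Col1a1, Col5a2 and Col14a1 had none. The 250 bases before the start site are shown for Col3a1 and Col5a3, the chains with the greatest difference under the virus, and for Col1a2, a chain with a small one. Capitals mark matches on either strand to 4 motifs, which do not overlap each other in these 3 sequences. These are CCAAT, which NF-Y binds, and GGGCGG, the motif of Sp1. The others are TATAAA, which TBP binds, and CAGAC, the core of SMAD-binding elements. Each is written 5′ to 3′ on the strand of its gene, from chr1:45311288-45311537 (plus strand) for Col3a1, chr9:20815068-20815317 (minus strand) for Col5a3 and chr6:4505368-4505617 (plus strand) for Col1a2.
Col3a1: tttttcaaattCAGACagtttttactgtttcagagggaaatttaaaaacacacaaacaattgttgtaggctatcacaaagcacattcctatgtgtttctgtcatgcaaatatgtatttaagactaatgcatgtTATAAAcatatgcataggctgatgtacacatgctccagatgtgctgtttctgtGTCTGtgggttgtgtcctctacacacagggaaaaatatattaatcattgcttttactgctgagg
Col5a3: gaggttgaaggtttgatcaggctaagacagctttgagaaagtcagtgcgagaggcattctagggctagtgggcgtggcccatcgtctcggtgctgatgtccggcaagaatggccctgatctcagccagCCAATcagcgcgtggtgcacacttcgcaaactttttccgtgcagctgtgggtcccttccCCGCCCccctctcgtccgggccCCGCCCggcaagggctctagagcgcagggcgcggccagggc
Col1a2: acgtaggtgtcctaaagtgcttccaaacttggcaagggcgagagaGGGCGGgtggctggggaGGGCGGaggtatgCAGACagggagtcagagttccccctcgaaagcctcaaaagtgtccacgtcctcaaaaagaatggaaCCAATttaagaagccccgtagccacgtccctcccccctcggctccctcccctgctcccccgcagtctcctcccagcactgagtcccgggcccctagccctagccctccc

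The Col3a1 window held 1 match to TATAAA and 2 to CAGAC, with a GC content of 35.2%. The Col5a3 window (62.8% GC) held 1 match to CCAAT and 2 to GGGCGG, and the Col1a2 window (62% GC) held 1 match to CCAAT, 2 to GGGCGG and 1 to CAGAC. The median GC content over the 32851 promoters in the table was 52.4%. The 7 chains had 8 windows, 2 of them for Col6a2. CAGAC was present in 5 of the 8 windows, GGGCGG in 5, CCAAT in 2 and TATAAA in 1, against 42.2%, 32.7%, 33.8% and 12.4% of all promoters of this length. The 2 chains with the greatest difference thus shared none of the 4 motifs, and a match is a description of letters only.

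Levels were compared between chains per length, as the FPKM values (fragments scaled to gene length and to the library's total) deposited for each library. Col3a1 had the highest median over 15 libraries (31.1 FPKM), followed by Col6a1 (24.2), Col1a2 (20.3), Col6a2 (15.9) and Col1a1 (15.3). The type V chains were lower, with 5.29 FPKM for Col5a1, 4.03 for Col5a2 and 3.67 for Col5a3, and Col6a3 (3.59) and Col14a1 (2.16) were lowest. Each chain had between 59 and 5242 reads in a library, the former for Col5a3 and the latter for Col3a1. Total counts ran from 10480788 to 13424078 per library (median 12011453), and the 10 genes together took between 0.0403% and 0.167% of them.

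Levels within a gene are given as CPM, the count of a gene divided by the library's TMM-scaled total. The order of the group means was the same for 9 of the 10 chains, with WTSHAM highest, then WTCKD, KOCKD, WTCKD + RNLS and KOCKD + RNLS. Col14a1 was the exception, with KOCKD (12.5 ± 5.52, SD, n = 3) and WTCKD + RNLS (12.7 ± 4.39) below KOCKD + RNLS (14.3 ± 2.32). The highest library of all 10 chains was WTSHAM replicate 2. Between neighbours in this order the libraries mostly overlapped. Only Col6a3 had all its WTCKD libraries below all its WTSHAM libraries, and again all its KOCKD libraries below all its WTCKD libraries, against 12.2% and 9.43% of all genes. Between KOCKD and WTCKD + RNLS 4 chains did not overlap (background 11.1%), and WTCKD + RNLS and KOCKD + RNLS overlapped for all 10.

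**Figure D1:**
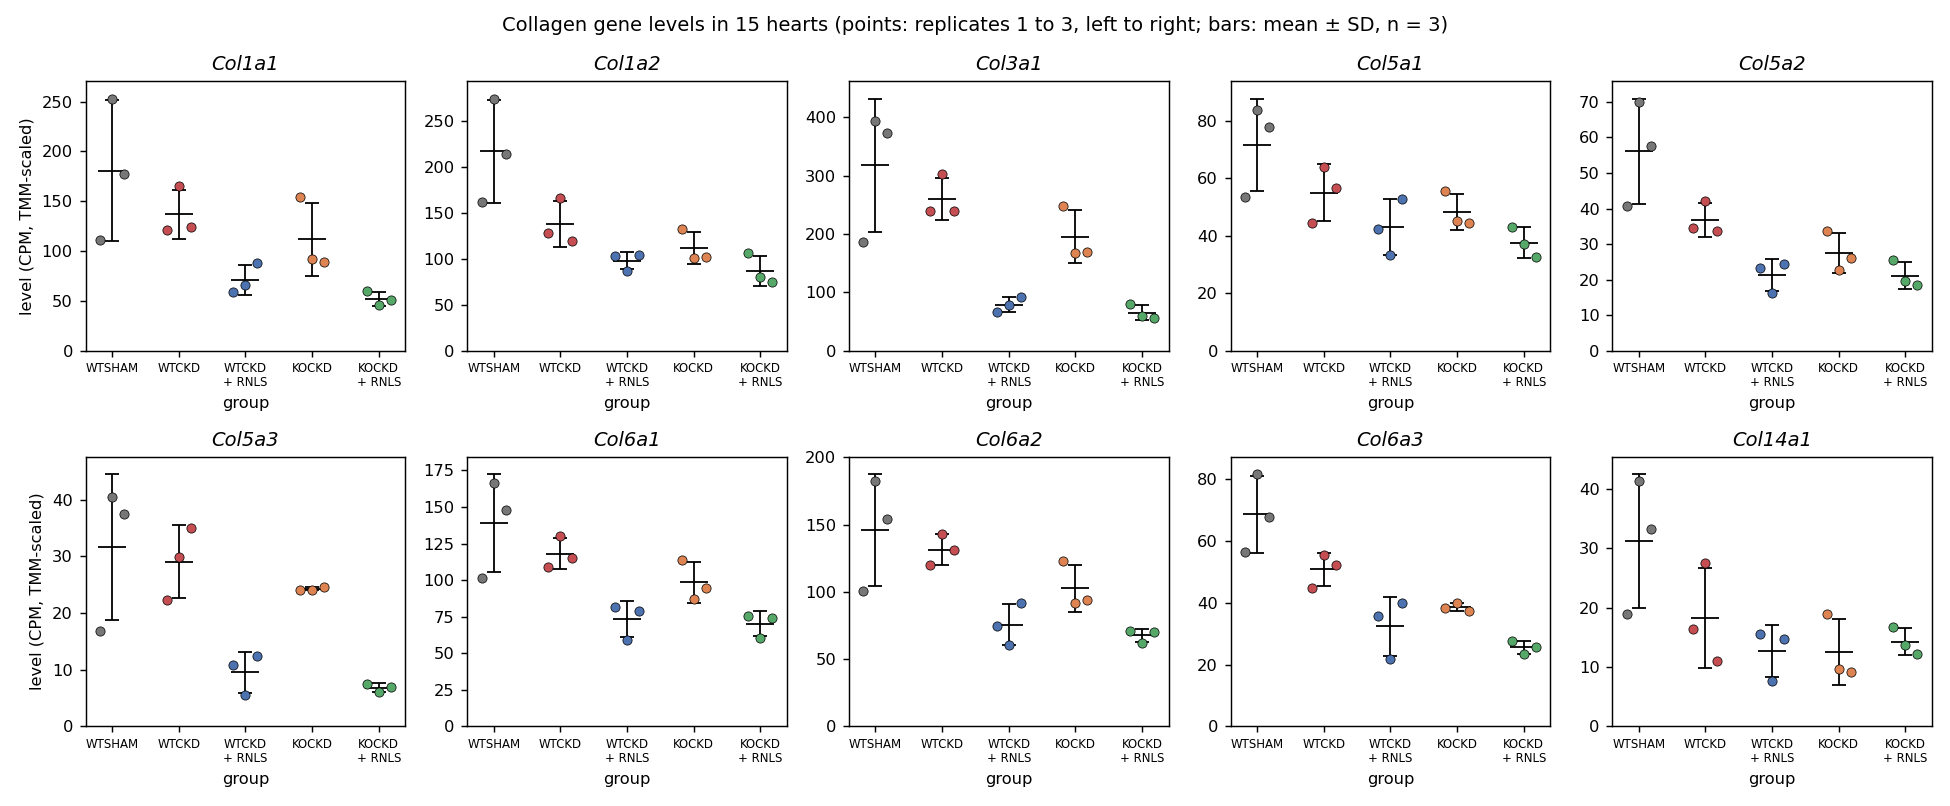
Level of each collagen gene (CPM after TMM scaling, y axis from 0) in the 5 groups. Points are replicates 1 to 3 from left to right and bars are the mean ± SD (n = 3). For 9 of the 10 genes WTSHAM is highest and KOCKD + RNLS lowest, and WTSHAM replicate 2 is the highest library in every panel.

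Libraries of 1 group were not equally alike. The summed level of the 10 chains was 850 CPM in WTSHAM replicate 1, against 1588 and 1340 in replicates 2 and 3. Over all genes WTSHAM replicate 1 differed from replicates 2 and 3 by a chi-square of 18.9 and 19.5 per gene, against 8.71 between the latter. The library names in the labels also vary within groups. WTSHAM replicate 1 and WTCKD + RNLS replicate 3 carry another prefix than the rest of their groups. They share it with all 3 KOCKD + RNLS libraries and, in lower case, with all 3 WTCKD libraries. Whether any group label is in error was not tested. In the study's qPCR, hearts given the virus held more RNLS mRNA than controls, which was not checked in these libraries. By the same chi-square WTCKD + RNLS replicate 2 stood apart from its group (20.5 and 18.6 against 8.63). In WTCKD the sums were 880, 1127 and 918 CPM, and in KOCKD they were 942, 681 and 692 CPM. The virus groups were lower, with 513, 436 and 600 CPM in WTCKD + RNLS and 514, 409 and 422 CPM in KOCKD + RNLS. These 6 virus libraries all lay below all 9 others.

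WTCKD was compared with WTSHAM to ask how CKD changed collagen expression in wild-type hearts. None of the 10 chains was called higher or lower at an adjusted p under 0.05 (edgeR quasi-likelihood test, Benjamini-Hochberg adjustment over 13021 genes), while 1.7% of all genes were called lower and 0.599% higher. All 10 log2 fold changes were below 0, as were 50.9% of those of all genes, between -0.77 for Col14a1 and -0.13 for Col5a3 (-0.38 for Col5a1, -0.23 for Col6a1 and -0.15 for Col6a2), with a median of -0.39 against -0.01 for all genes. Without WTSHAM replicate 2, Col5a3 and Col6a2 were above 0, and Col5a3 also without WTSHAM replicate 3 or WTCKD replicate 1. At an unadjusted p under 0.05, 4 chains were lower in edgeR, namely Col1a2, Col5a2, Col6a3 and Col14a1, against 10.3% of all genes, and DESeq2 called 1 chain, Col1a2, lower at its adjusted p (background 2.93%). By the study's thresholds, an unadjusted p under 0.05 and a fold change over 1.25, put here on edgeR's p-values and not on those of the study's own test, the same 4 chains were lower (background 7.63%). Col1a2, the partner chain of type I collagen, came closest, with 162, 275 and 215 CPM in WTSHAM and 128, 167 and 119 CPM in WTCKD (log2 fold change -0.65 ± 0.18, SE, edgeR adjusted p = 0.0716). Its groups overlapped by WTCKD replicate 2 alone, which exceeded WTSHAM replicate 1.

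Without WTSHAM replicate 1, 2 chains, Col1a2 and Col5a2, were called lower in WTCKD (edgeR, background 1.87% of the 13179 genes tested in that fit). For Col3a1 the WTSHAM libraries held 187, 394 and 372 CPM and the WTCKD libraries 239, 302 and 239.7 CPM, a log2 fold change of -0.29 with a 95% interval of -0.78 to 0.20. For Col1a1 the log2 fold change was -0.40 (95% interval -0.94 to 0.14), with 112, 253 and 177 CPM in WTSHAM and 121, 166 and 125 CPM in WTCKD.

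Within wild-type CKD, AAV9-cTnT-RNLS was compared with the vector. Of the 10 chains 7 were lower in WTCKD + RNLS (background 2.28% of genes lower) and none was higher. The median log2 fold change of the 10 was -0.73, against 0.01 for all genes. All libraries of WTCKD + RNLS lay below all those of WTCKD for 8 chains (background 10.8%).

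Col3a1, the single chain of type III collagen, fell most. It had 239, 302 and 239.7 CPM in WTCKD and 67.2, 77.7 and 92.4 CPM in WTCKD + RNLS (log2 fold change -1.72 ± 0.24, edgeR adjusted p = 0.00137). The groups were far apart, the highest virus library lying under the lowest vector library by more than the range within either group. Col5a3, the type V chain with the lowest median FPKM, had 22.2, 29.9 and 35.0 CPM with the vector and 10.8, 5.48 and 12.5 CPM with the virus (-1.59 ± 0.29, edgeR adjusted p = 0.00734), again without overlap. Col1a1, the major chain of type I collagen, went from 121, 166 and 125 CPM to 58.8, 66.5 and 87.9 CPM (-0.95 ± 0.26, edgeR adjusted p = 0.0488).

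The partner chains moved less. Col1a2 had 103, 87.4 and 105 CPM with the virus, all below the WTCKD libraries, but its fall of 0.49 on the log2 scale did not pass (edgeR adjusted p = 0.142). Of the type V chains, Col5a2 passed (-0.79 ± 0.21, edgeR adjusted p = 0.0393), whereas Col5a1, the chain present in most type V molecules, did not (-0.35, 95% interval -0.75 to 0.04).

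All 3 type VI chains were lower. Col6a2 went from 120.2, 143 and 131 CPM to 74.8, 60.7 and 91.7 CPM (-0.79 ± 0.18, edgeR adjusted p = 0.0222). Its partners Col6a1 (-0.68, edgeR adjusted p = 0.0276) and Col6a3 (-0.64, edgeR adjusted p = 0.0459) differed by similar amounts. Col14a1 had 16.5, 27.5 and 11.0 CPM with the vector and 15.6, 7.61 and 14.8 CPM with the virus, groups that overlapped (-0.52, edgeR adjusted p = 0.466).

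The count of 7 rested on all 6 libraries. Leaving out any 1 of them left 2 to 4 chains called, with 2 without WTCKD replicate 2 and 2 without WTCKD + RNLS replicate 2, 3 without WTCKD replicate 1 or WTCKD + RNLS replicate 1, and 4 without replicate 3 of either group (background 0.905% to 2.11% of genes lower in these fits). Col3a1 and Col5a3 were called in each of these fits.

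In knockout CKD the same comparison gave 5 chains lower with the virus (background 7.04% of genes lower) and none higher. The median log2 fold change was -0.54, against -0.01 for all genes, and 7 chains did not overlap, all lower (background 20%). KOCKD and WTCKD are separate groups, so this comparison shares no library with the one in wild-type mice.

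Col5a3 and Col3a1 were again the chains that fell most. Col5a3 had 24.1, 24.1 and 24.7 CPM in KOCKD and 7.56, 6.12 and 6.93 CPM in KOCKD + RNLS (-1.82 ± 0.31, edgeR adjusted p = 0.0025). The 3 libraries of each group were almost equal, and the groups were about 3.54-fold apart. Col3a1 had 248, 168 and 169.9 CPM with the vector and 80.7, 59.7 and 56.0 CPM with the virus (-1.58 ± 0.24, edgeR adjusted p = 0.00161).

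Col1a1 had 154, 92.2 and 89.1 CPM in KOCKD and 59.6, 46.1 and 50.7 CPM in KOCKD + RNLS (-1.10 ± 0.26, edgeR adjusted p = 0.0124), with KOCKD replicate 1 above the other vector libraries. Its partner Col1a2 had 132, 101 and 103 CPM and then 106, 80.3 and 74.9 CPM, so that KOCKD + RNLS replicate 1 lay within the vector group (-0.36, edgeR adjusted p = 0.188). Thus type I collagen's 2 chains again differed in size of change, which was tested on their ratio as described further on.

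Col6a2 (-0.60 ± 0.19, edgeR adjusted p = 0.0378) and Col6a3 (-0.59 ± 0.18, edgeR adjusted p = 0.0337) also fell, and Col6a1 just missed the threshold (-0.49, edgeR adjusted p = 0.0568) although its groups did not overlap. Col5a1 and Col5a2 did not pass (-0.36 and -0.38). Col14a1 had 18.9, 9.60 and 9.10 CPM in KOCKD and 16.8, 13.7 and 12.3 CPM in KOCKD + RNLS, with no clear direction (0.19, 95% interval -0.59 to 0.97). Leaving out each of the 6 libraries left 2 or 3 chains called, 2 of them without KOCKD replicate 1 or without KOCKD + RNLS replicate 2, and Col3a1 and Col5a3 were among the calls each time (background 2.11% to 4.93% of genes lower in these fits). Some other settings raised the count to 6 or 7 and others lowered it to 3 or 4, as given in the closing section.

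**Figure D2:**
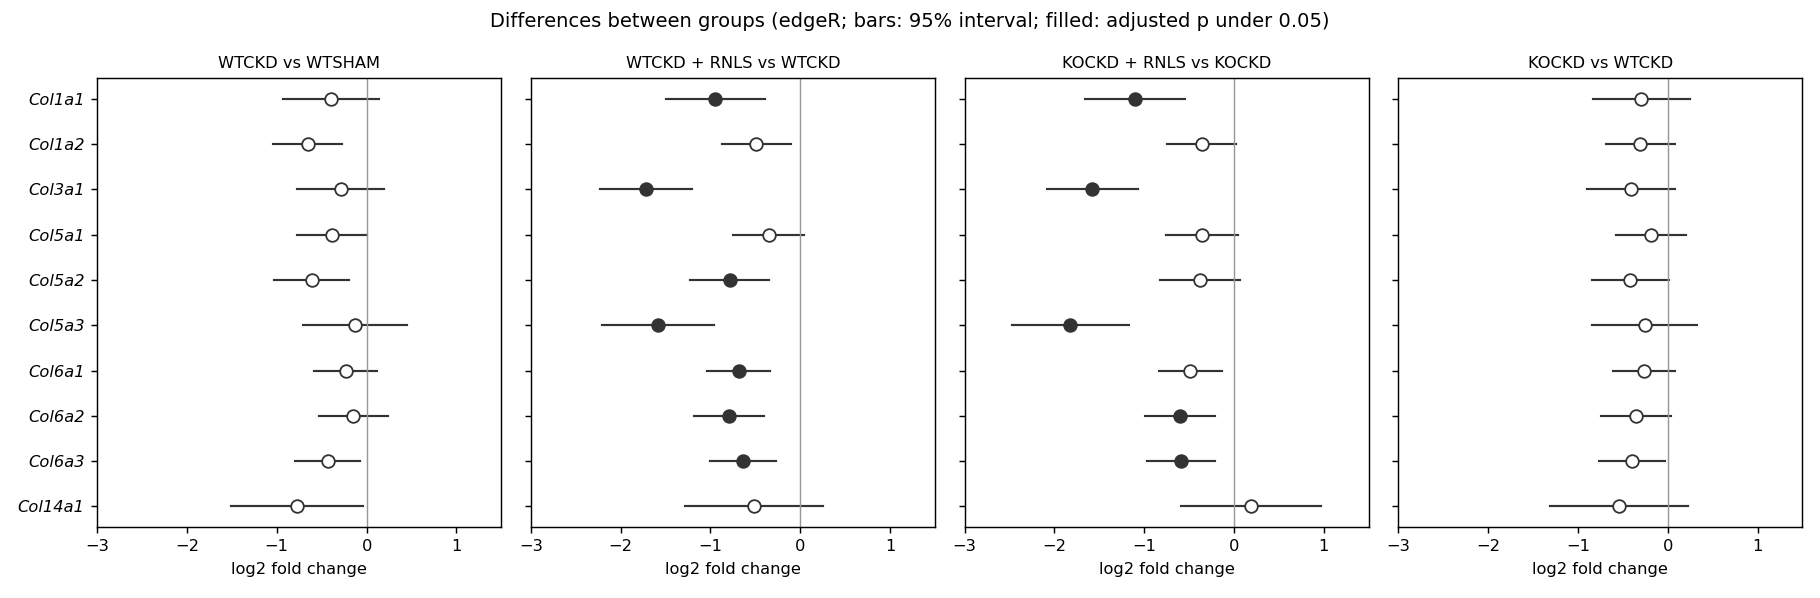
Log2 fold change of each collagen gene (x axis) in 4 comparisons, with the 95% interval from edgeR. Filled circles have an adjusted p under 0.05: 0 genes for CKD against sham, 7 and 5 for the virus in wild-type and knockout CKD, and 0 for knockout against wild type.

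The difference between the genotypes in the virus effect was tested as an interaction. It was called for none of the 10 chains in edgeR, nor in DESeq2, and none had an unadjusted p under 0.05 (lowest edgeR adjusted p = 0.493). The difference was 0.14 for Col3a1 (95% interval -0.56 to 0.84), -0.23 for Col5a3 (-1.13 to 0.66), -0.15 for Col1a1 (-0.93 to 0.62) and 0.71 for Col14a1 (-0.38 to 1.81), on the log2 scale with knockout minus wild type. It was 0.13 for Col1a2, -0.01 for Col5a1, 0.41 for Col5a2, 0.20 for Col6a1, 0.19 for Col6a2 and 0.05 for Col6a3. These intervals are wide beside the effects themselves. Over all genes edgeR called 0%, with 17.6% at an unadjusted p under 0.05, and DESeq2 called 359 genes.

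Averaged over both genotypes, 8 of the 10 chains were lower with the virus (background 7.33% of genes lower, 10.7% higher). Col3a1 was 3.13-fold lower (log2 fold change -1.65, 95% interval -2.01 to -1.29, edgeR adjusted p = 4.79e-05) and ranked 11th of 13021 genes by p. Col5a3 was 3.26-fold lower (-1.70, -2.16 to -1.25, edgeR adjusted p = 0.000156) and Col1a1 2.03-fold lower (-1.02, -1.41 to -0.63, edgeR adjusted p = 0.00162). The type VI chains were 1.5-fold to 1.62-fold lower, Col5a2 1.5-fold and Col1a2 1.34-fold. Col5a1 (-0.36, edgeR adjusted p = 0.0738) and Col14a1 (-0.16, 95% interval -0.71 to 0.38) did not pass. For 4 chains all 6 virus libraries lay below all 6 vector libraries (background 2.27%).

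KOCKD was compared with WTCKD for the effect of the knockout under CKD. No chain was called by edgeR or DESeq2, and 0% of all 13021 genes by edgeR, while 1 chain, Col6a3, was lower at an unadjusted p under 0.05 (background 5.64%) and by the study's thresholds (background 3.68%). Over all genes DESeq2 called 8. The 10 log2 fold changes were all below 0 (background 50.8%), between -0.19 for Col5a1 and -0.54 for Col14a1, but with the fibroblast score as a covariate 5 of them were above 0 (Col1a1, Col1a2, Col5a1, Col6a1 and Col14a1), none with a call. Col6a3 had 44.9, 55.5 and 52.2 CPM in WTCKD and 38.2, 40.1 and 37.5 CPM in KOCKD (-0.40, 95% interval -0.76 to -0.03, edgeR adjusted p = 0.482), groups that did not overlap. For Col3a1 the interval ran from -0.90 to 0.08 and for Col1a1 from -0.83 to 0.25. The log2 fold change was -0.42 for Col5a2, -0.26 for Col5a3, -0.35 for Col6a2, -0.26 for Col6a1 and -0.30 for Col1a2, with intervals that all held 0.

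The virus groups were also set against WTSHAM. These comparisons share WTSHAM libraries with that of WTCKD, and the virus libraries with those above. All 10 chains were lower in WTCKD + RNLS than in WTSHAM (background 4.81%), and 9 were lower in KOCKD + RNLS (background 6.34%), where Col14a1 missed the threshold (-1.13, edgeR adjusted p = 0.0509). No chain overlapped in either comparison (background 11.9% and 16.3%). Col3a1 was 4.02-fold lower in WTCKD + RNLS and 4.85-fold lower in KOCKD + RNLS, and Col5a3 3.28-fold and 4.6-fold lower. Col1a1 was 2.54-fold and 3.46-fold lower, Col1a2 2.21-fold and 2.49-fold, Col5a1 1.67-fold and 1.9-fold and Col5a2 2.63-fold and 2.65-fold. Col6a1 was 1.89-fold and 1.98-fold lower, Col6a2 1.92-fold and 2.15-fold and Col6a3 2.11-fold and 2.68-fold, and Col14a1 was 2.45-fold lower in WTCKD + RNLS. Markers of macrophages moved in the same direction. Of 10, 7 were lower in WTCKD + RNLS (median -0.76) and 9 in KOCKD + RNLS (median -1.06). In the same order 3 and 5 of 11 activated fibroblast markers were lower (medians -1.48 and -1.71). So were 3 and 4 of 12 fibroblast and 4 and 2 of 10 endothelial markers. Of 11 cardiomyocyte markers 5 and 1 were higher (background 2.88% and 4.78%). Of 15 circadian clock genes 7 and 8 were higher, and 3 were lower in each. Their part in the collagen result was not tested. The knockout comparison differs from WTSHAM in genotype, surgery and virus at once, which cannot be told apart.

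Since the chains of a collagen type are made together, their ratios were computed within each library, on FPKM. Col3a1 and Col14a1, of other types, were also set against Col1a1. These ratios were chosen with earlier results of these data known and use the same libraries as above. Their tests are therefore no independent evidence. In WTCKD the Col1a1 to Col1a2 ratio was 0.828, 0.874 and 0.921, and in WTCKD + RNLS it was 0.504, 0.670 and 0.741. In KOCKD it was 1.02, 0.806 and 0.765, and in KOCKD + RNLS 0.495, 0.506 and 0.596. Thus all virus libraries lay below all vector libraries, and WTSHAM (0.605, 0.811 and 0.727) lay between and across both. With the virus this ratio was 0.58 lower on the log2 scale. An exact permutation test within genotype (two-sided, 400 rearrangements) gave p = 0.005, the smallest they can give. Its adjusted p was 0.015 over the 6 ratios tested.

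The Col3a1 to Col1a1 ratio fell from 2.10, 1.94 and 2.05 in WTCKD to 1.22, 1.25 and 1.12 in WTCKD + RNLS. In knockout mice it went from 1.72, 1.94 and 2.03 to 1.44, 1.38 and 1.18, again without overlap (log2 difference over both genotypes -0.64, exact permutation p = 0.005, adjusted p = 0.015). Type III RNA therefore fell more than that of the major type I chain. The Col14a1 to Col1a1 ratio rose by 0.89 (exact permutation p = 0.02, adjusted p = 0.04), from 0.102, 0.0868 and 0.0852 in KOCKD to 0.236, 0.248 and 0.202 in KOCKD + RNLS. In wild-type mice it overlapped, with 0.114, 0.138 and 0.0735 against 0.221, 0.0956 and 0.140.

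The ratios tested within types V and VI differed less. None of them held Col5a3, whose mean virus effect (-1.70) was greater than that of Col5a1 (-0.36) or Col5a2 (-0.58). The Col5a1 to Col5a2 ratio was 0.23 higher on the log2 scale with the virus (exact permutation p = 0.07, adjusted p = 0.084), Col6a1 to Col6a2 was 0.11 higher (p = 0.06 and adjusted p = 0.084 by the same exact test), and Col6a3 to Col6a1 was 0.05 lower (exact permutation p = 0.59). For CKD against sham no ratio could pass, because 3 against 3 allows no p below 0.1 in an exact permutation test. Of the 6 ratios 3 reached that value, each without overlap, with an adjusted p of 0.2 by this exact permutation test. They were Col1a1 to Col1a2 (log2 difference 0.30), Col6a3 to Col6a1 (-0.22) and Col6a1 to Col6a2 (-0.098). In levels, 12.2% of all genes were lower and 10.3% higher without overlap in this comparison.

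**Figure D3:**
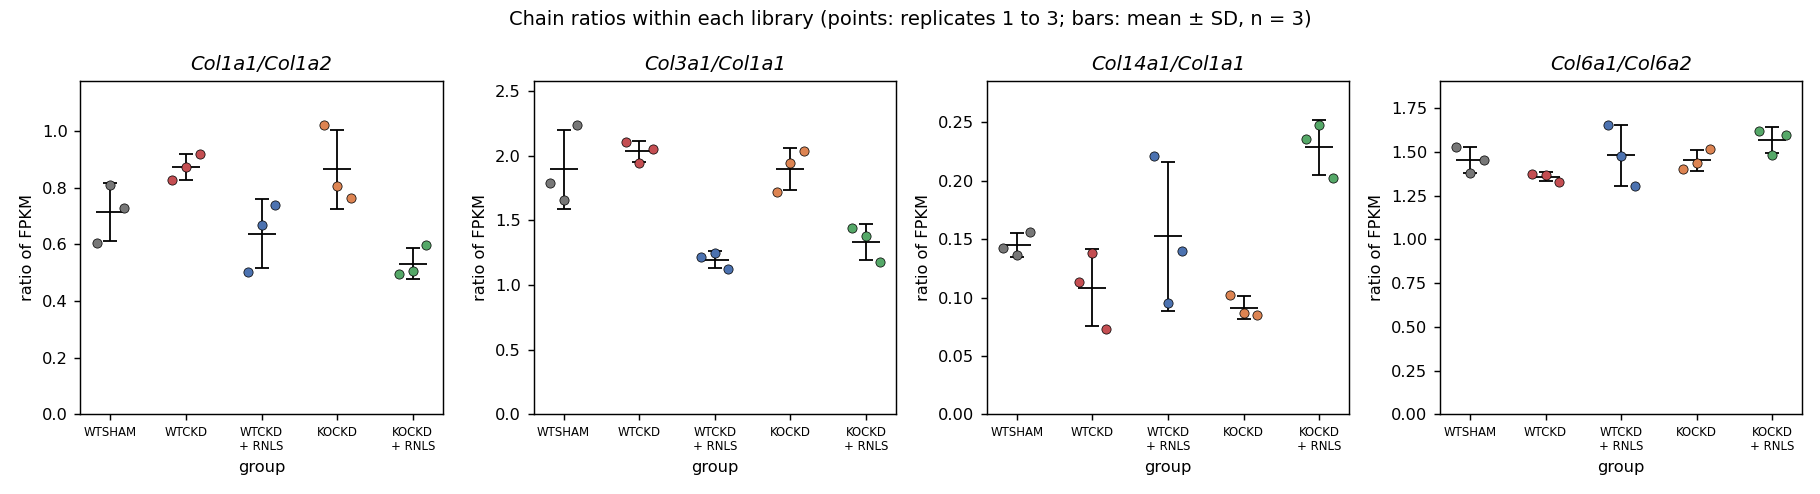
Ratio of the FPKM values of 2 collagen genes in each library (y axes from 0) in the 5 groups. Points are replicates 1 to 3 and bars the mean ± SD (n = 3). The first 2 ratios are lower in all 6 virus libraries than in all 6 vector libraries with CKD, and Col14a1 to Col1a1 is higher in KOCKD + RNLS.

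The 10 chains rose and fell together across the 15 libraries. The Pearson correlation of log2 CPM between 2 chains had a median of 0.91 over 45 pairs (0.51 to 0.98), with Col14a1 least like the others. After subtraction of the group means the median was 0.82 (0.46 to 0.94), with Col6a3 least alike. The chains were measured in the same libraries, which fall into groups, so these values are a description.

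The genes most like the mean profile of the chains over 15 libraries, among 11717 genes ranked, were Fbn1 (fibrillin-1, the core of elastic microfibrils, r = 0.98), Fstl1 (a secreted glycoprotein of fibroblasts, 0.96), Loxl2 and Loxl1 (lysyl oxidases that crosslink collagen and elastin, 0.95 and 0.94), Postn (periostin, a matrix protein of activated fibroblasts, 0.95), Eln (elastin, 0.95), Clock (a circadian transcription factor, 0.94) and Lcp1 (an actin-bundling protein of leukocytes, 0.93). Of these 8, 5 were also among the 8 most alike by Spearman correlation. Fbn1 was lowest in WTCKD + RNLS (46.0, 33.4 and 54.1 CPM) and KOCKD + RNLS (44.8, 41.8 and 43.9 CPM). It had 84.5 to 126 CPM in WTCKD, 96.7, 63.5 and 64.9 CPM in KOCKD and 75.7, 149 and 154 CPM in WTSHAM. On deviations from the group means the most alike were Smo (a hedgehog pathway receptor), Myh10 (non-muscle myosin), Islr, Fbn1, Itih5, Prelp, Cplx2 and Wsb1 (r = 0.92 to 0.95), so that Fbn1 alone was in both sets of 8. Of this second set 1 was also among the 8 most alike by Spearman correlation.

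**Figure D4:**
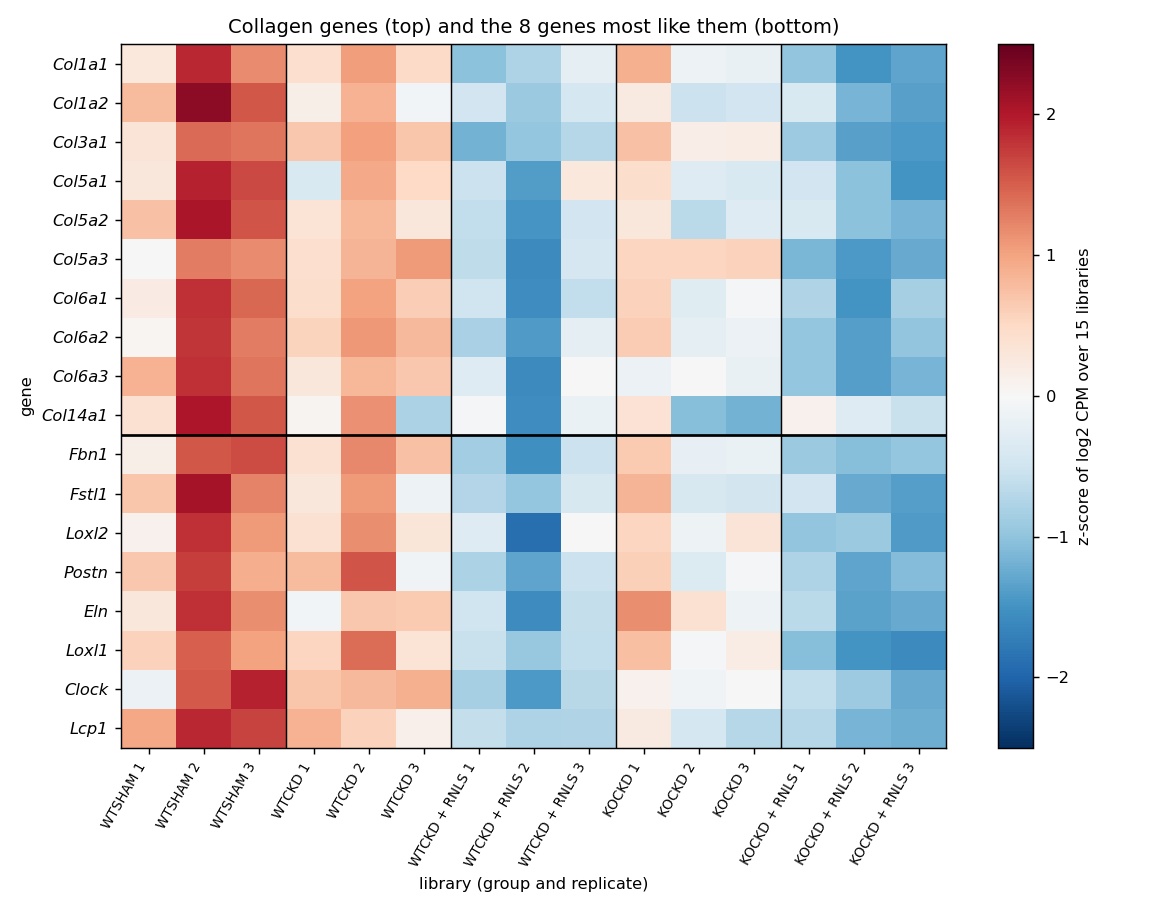
Each row is a gene, each column a library, and colour gives the z-score of its log2 CPM over the 15 libraries. The 10 collagen genes stand above the line and the 8 genes most like them below it, and WTSHAM replicates 2 and 3 are high and the 6 virus libraries low in nearly every row.

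Genes that act on collagen were counted from fixed lists in the virus effect averaged over both genotypes (background 7.33% lower, 10.7% higher, median of all genes -0.01). In folding and hydroxylation, 7 of 19 measured genes fell and 1 rose (median -0.09). P3h2, a prolyl 3-hydroxylase, fell by 0.92 and Sparc, a matricellular collagen chaperone, by 0.67 on the log2 scale, and Serpinh1, the collagen chaperone HSP47, was also among them (-0.47). In procollagen processing and crosslinking, 4 of 12 fell and 2 rose (median -0.31). Loxl1 fell by 0.89. Tll2, a tolloid-like protease, rose by 2.03 from a low level (0.604 to 2.68 CPM between the means of WTCKD and WTCKD + RNLS). Lox and Loxl2, lysyl oxidases, and Adamts2, the protease that removes the procollagen N-propeptide, made up the 4, and Adamts3 was the other that rose.

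Of 13 collagenases, gelatinases and inhibitors 4 fell and 1 rose. Mmp9 (gelatinase B, -1.35) and Mmp3 (stromelysin-1, -1.15) fell from low levels, as did Mmp14, a membrane-bound collagenase, and the inhibitor Timp1, whereas the inhibitor Timp3 rose. Of 10 small leucine-rich proteoglycans, which coat fibrils, none fell and Podn (podocan) rose by 0.93 (edgeR adjusted p = 0.00062). Decorin (Dcn), the best known of them, did not pass (-0.20). None of 10 collagen receptors and uptake genes passed. Of 14 TGF-beta ligands, receptors and mediators 2 fell, Smad3 (-0.42) and Tgfb1 (-0.42), and 2 rose, Tgfbr3 (0.53) and Ltbp1 (0.39). In wild-type mice 3 of them fell, Smad3, Tgfb1 and Ltbp4 (-0.57), and none rose (median -0.16, background 2.28% lower and 2.19% higher). In knockout mice Tgfbr3 and Ltbp1 rose and none fell (median 0.17, background 9.05% higher and 7.04% lower). The interaction was called for none of the 14. The names beyond the 2 greatest changes of a list were added after their values were seen, to complete each count.

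Other collagens gave a mixed picture. Of 8 basement membrane and multiplexin chains, 4 fell and 1 rose (median -0.64). Col4a1, a chain of the basement membrane network, fell by 0.86 and Col18a1, the source of endostatin, by 0.87 on the log2 scale, with Col4a2 and Col15a1 also lower and Col4a5 higher. Of 8 other fibril-associated and interstitial chains and of 3 transmembrane and minor chains none passed. Of the 2 other fibril-forming chains measured, Col27a1 rose by 0.82 (edgeR adjusted p = 0.0142), from 3.63 to 5.66 CPM between the means of WTCKD and WTCKD + RNLS. In wild-type mice alone 0 of these 2 chains were called higher (background 2.19%). In knockout mice alone 1 of them was called higher (background 9.05%).

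RNA of heart tissue was sequenced, so fewer fibroblasts and less collagen RNA per fibroblast cannot be told apart. The cardiomyocyte markers Myh6 (30141 to 46339 CPM) and Tnnt2 were abundant in all libraries. In the mean virus effect of both genotypes (background 7.33% lower and 10.7% higher), 2 of 12 fibroblast markers fell, Meox1 (-1.41) and Dpt (-0.58), and none rose (median -0.20). In wild-type mice the same 2 fell (median -0.36, background 2.28% lower). In knockout mice Meox1 fell and Ddr2, a collagen receptor, rose by 0.65 (median -0.04), shares near the background (7.04% lower and 9.05% higher). Pdgfra, the receptor that defines resident fibroblasts, had a log2 difference of -0.05 (95% interval -0.31 to 0.22, edgeR adjusted p = 0.837), and Tcf21, their transcription factor, -0.26 (edgeR adjusted p = 0.16). Of 11 activated fibroblast markers, Postn (-1.06), Cilp (-0.98) and Lox (-0.81) fell and none rose (median -0.82), while Acta2, smooth muscle actin, did not pass (-0.19).

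The summed level of the fibroblast markers, of which Gsn was most abundant, was 2911, 3828 and 3565 CPM in WTSHAM and 2983, 3751 and 2227 CPM in WTCKD. It was 2490.1, 1908 and 2674 CPM in WTCKD + RNLS, 2745, 2046 and 2196 CPM in KOCKD, and 2558, 2407 and 2245 CPM in KOCKD + RNLS. All libraries of WTCKD + RNLS, KOCKD and KOCKD + RNLS lay below all WTSHAM libraries in this sum, and the other groups overlapped. With the mean fibroblast marker level as a covariate, chosen after seeing the data, 7 chains were called lower over both genotypes (background 8.23%), Col3a1 by 1.39 and Col5a3 by 1.55 on the log2 scale, and Col14a1 was called higher (background 10.8%). In WTCKD + RNLS against WTCKD the count of chains called lower went from 7 to 2, which were Col3a1 and Col5a3, while the background went from 2.28% to 0.891% of genes. In WTCKD + RNLS against WTSHAM it went from 10 to 2, with a background of 0.776% in place of 4.81%. In KOCKD + RNLS against KOCKD 6 chains were then called lower (background 10.1%) and Col14a1 higher by 0.42 on the log2 scale (edgeR adjusted p = 0.0299, background 11.1%).

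Markers of other cells were counted in the same mean virus effect (background 7.33% of genes lower and 10.7% higher). Of 10 endothelial markers 7 fell, among them Emcn (-0.44), and Flt1 rose (0.49). Of 10 macrophage markers 2 fell, Adgre1 (-0.66) and C1qa (-0.40). Of 11 cardiomyocyte markers none fell and 3 rose, Ttn by 0.59, Myh6 by 0.41 and Ryr2 by 0.19. Of 10 pericyte and smooth muscle markers 1 rose, Abcc9 (0.54), a share near the background, and none fell. Of 6 Schwann cell markers 4 fell, including Mbp (-1.66). Scx was the 1 of 5 valve, tendon and cartilage markers that fell (-0.76), and no T and B cell, epicardial, adipocyte or erythrocyte marker passed. All 5 adipocyte markers were below 0 (median -2.57), and 4 were lower by the study's thresholds (background 8.17%). By the same thresholds 4 of 5 erythrocyte markers were higher (median 1.29, background 8.56%). In wild-type mice alone 1 of 5 erythrocyte markers was called higher with the virus (background 2.19%), Hbb-bs (39.3 to 258 CPM between the means). All 5 were higher there without overlap (median 2.72, background 10.4%). Upk3b, 1 of 3 epicardial markers, was called lower there (3.69 to 0.0278 CPM, background 2.28%). Their part in the collagen result was not tested.

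Atrial markers differed between libraries by an order of magnitude, and 3 of 6 were lower with the virus (background 7.33%). Their sum, led by Nppa, was 185, 527 and 1304 CPM in WTSHAM, 1383, 2573 and 128 CPM in WTCKD and 189, 159.8 and 548 CPM in WTCKD + RNLS. It was 491, 150.0 and 2715 CPM in KOCKD and 203, 331 and 175 CPM in KOCKD + RNLS. Myl7, the atrial myosin light chain, had 12.8, 77.6 and 310 CPM in WTSHAM, 419.8, 478 and 1.28 CPM in WTCKD and 53.1, 4.85 and 805 CPM in KOCKD. With the virus it had 7.18, 0.836 and 113 CPM in WTCKD + RNLS and 0.325, 0.662 and 0.749 CPM in KOCKD + RNLS, the group in which it was lowest. The wild-type groups overlapped in Myl7 and the knockout groups did not. Sln, sarcolipin, an atrial inhibitor of the calcium pump, went from 60.7 to 5.19 CPM between the wild-type and from 47.8 to 0.0583 CPM between the knockout group means. With the atrial marker level as a covariate, also chosen after seeing the data, 4 chains were called lower with the virus in wild-type mice (background 2.06%) and 3 in knockout mice (background 9.83%), and Col3a1 fell by 1.5 on the log2 scale over both.

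Of 15 circadian clock genes 10 were higher and 4 lower with the virus (background 10.7% higher and 7.33% lower). Arntl fell by 3.86 and Ciart rose by 2.72 on the log2 scale. The summed level of the clock genes was 905 to 1120.2 CPM in WTCKD + RNLS and 969 to 1168 CPM in KOCKD + RNLS, against 542 to 598 CPM in WTCKD, 488 to 755 CPM in WTSHAM and 548 to 937 CPM in KOCKD. The highest vector library, KOCKD replicate 3, lay within the range of WTCKD + RNLS and below that of KOCKD + RNLS. The time of day at which the hearts were taken is not in the labels, and its part in the collagen result was not tested.

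**Figure D5:**
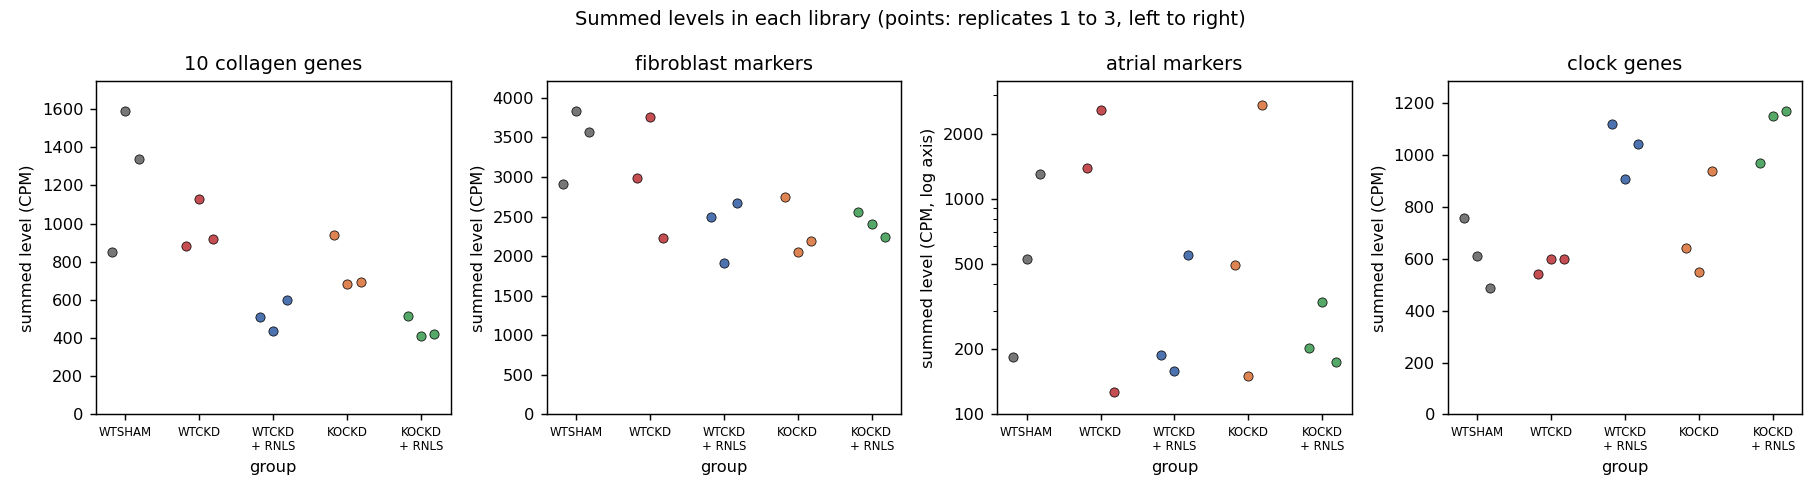
Summed level (CPM) of the 10 collagen genes and of 3 marker lists in each library, by group, with points for replicates 1 to 3 from left to right and a log axis for the atrial markers. The collagen sum is lower in all 6 virus libraries (409 to 600 CPM) than in all 9 others. Atrial sums overlap between groups, fibroblast sums are lower in WTCKD + RNLS, KOCKD and KOCKD + RNLS than in all 3 WTSHAM libraries, and clock sums are high with the virus and in KOCKD replicate 3.

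The genes lie on 7 chromosomes, given here on NCBIM37 (mm9) with GENCODE vM1 gene models. Col3a1 (chr1:45368383-45406551, plus strand) and Col5a2 (chr1:45431166-45560127, minus strand) lie side by side, and Col6a3 (chr1:92663435-92740529, minus strand) is on the same chromosome. Col6a1 (chr10:76171537-76188913, minus strand) and Col6a2 (chr10:76058507-76086375, minus strand) also neighbour each other. Col1a1 is at chr11:94797538-94814356 (plus strand), Col1a2 at chr6:4454814-4491543 (plus strand), Col5a1 at chr2:27741945-27895034 (plus strand), Col5a3 at chr9:20574494-20619511 (minus strand) and Col14a1 at chr15:55139305-55352358 (plus strand). The neighbours Col3a1 and Col5a2 differed in size of change with the virus (-1.65 and -0.58). Col1a1 shares 109 exon bases (1.66%) with Gm17329 on the opposite strand, and Col5a1 shares 99 with 2810430I11Rik and 113 with Gm13372. The strand setting of the counting is not given in the sources used here, so a few reads of these chains could belong to the other gene.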

How the data were processed

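Heart RNA libraries of 15 mice were prepared with a stranded kit and sequenced. The study's methods name alternative sequencing platforms and read lengths and do not say which library had which. The authors trimmed the reads with Trimmomatic, mapped them with hisat2 and deposited raw counts per gene from htseq-count. They also deposited FPKM values, which equal the counts divided by a fixed length per gene and by the library's total. The study's methods name mm9 as the genome and the submitters' processing notes GRCm39, so gene positions are given for mm9 without a check of the build used. Versions of these tools and the strand setting are not given in the sources used here. Rnls was not analysed here, so genotypes rest on the labels. Labels give 1 mouse per library.

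The counts, with totals of 10480788 to 13424078, were analysed in R 4.3.3 with edgeR 4.0.16: TMM scaling (factors 0.925 to 1.05), filterByExpr (minimum count 10, total 15), leaving 13021 genes, and a quasi-likelihood fit with group as the only term over 15 libraries. Calls were made at a Benjamini-Hochberg adjusted p under 0.05. Alternatives included the study's thresholds (fold change over 1.25 and unadjusted p under 0.05) put on edgeR's p-values, whereas the study took its own from the DESeq nbinomTest function, as well as DESeq2 1.42.0 and gene length offsets, which remove from each library a smooth trend of its counts on gene length. Log2 CPM used a prior count of 2. Chain ratios were tested by exact permutation on log2 ratios of FPKM, with counts plus 0.5 as the alternative. The code was tested on simulated counts. The collagen genes, gene lists and tests were chosen with earlier results of these data known. All 10 collagen genes were named in each comparison, and of each list the 2 called genes with the greatest absolute log2 fold change in the mean virus effect, except 1 gene that is not reported here. Ddr2, Ltbp4, Hbb-bs and Upk3b were named after their values were seen. Figures were drawn with matplotlib.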

Additional observations from a re-analysis of the deposited data

How the results depend on the processing

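Col3a1 and Col5a3 kept their direction and their call in every alternative run for the virus in wild-type, knockout and both genotypes. For both genotypes together so did Col1a1, Col5a2, Col6a1, Col6a2 and Col6a3, while Col1a2 lost its call in 7 of 21 alternatives. Below, counts of chains are followed in brackets by the share of all genes called lower in the same fit. Lower collagen genes in WTCKD against WTSHAM, 0 in the main analysis (1.7%), numbered 4 by the study's threshold (7.63%). There was 1 without the filter on low counts (1.45%) and 1 in DESeq2 (2.93%). With covariates chosen after seeing the data there were 2 with the atrial (2.68%) and 1 with the fibroblast score (1.6%). With 1 library left out there were 0 to 2 (0.819% to 1.87%). In WTCKD + RNLS against WTCKD, 7 (2.28%) became 4 with a replicate block (2.13%), 4 with the atrial (2.06%) and 2 with the fibroblast score (0.891%). It became 2 to 4 with 1 library left out (0.905% to 2.11%) and 6 in a fit of its own 6 libraries (1.64%). By the study's threshold it was 8, with Col1a2 added (8.09%). In KOCKD + RNLS against KOCKD, 5 (7.04%) became 4 with the replicate block (6.07%), 3 with the atrial score (9.83%) and 2 to 3 with 1 library left out (2.11% to 4.93%). It became 7 in a fit of its own 6 libraries (11.7%), through Col6a1 and Col5a1. Through either Col6a1 or Col5a1 it became 6 by the study's threshold (10.1%), without the filter (4.3%) and in DESeq2 (8.76%). The same held with gene length offsets (2.71%) and with the fibroblast score (10.1%). KOCKD against WTCKD gave 1 by the study's threshold (3.68%). WTCKD + RNLS against WTSHAM, with 10 (4.81%), gave 2 with the fibroblast score (0.776%), 7 in its own libraries (1.98%) and 9 with the replicate block (4.04%). With 1 library left out it gave 8 to 10 (2.38% to 6.45%). KOCKD + RNLS against WTSHAM went from 9 (6.34%) to 6 with the fibroblast score (3.07%). It rose to 10, with Col14a1 called, by the study's threshold (11.6%), without the filter (4.79%) and with gene length offsets (7.45%). It was also 10 with RLE in place of TMM scaling (6.38%), in its own libraries (6.19%) and without WTSHAM replicate 1 (6.84%). Over both genotypes 7 to 9 chains were called with 1 library left out (4.71% to 11.9%). With 1 library left out, the mean virus effect of Col14a1 was as high as 0.0492, without a call. Col14a1 reversed with the fibroblast score, to 0.45 for the mean virus effect (edgeR adjusted p = 0.00809) and to 0.0202 for WTCKD + RNLS against WTSHAM. Without a call before or after, it also turned positive for WTCKD + RNLS against WTCKD (0.484), KOCKD against WTCKD (0.329) and KOCKD + RNLS against WTSHAM (0.281). In KOCKD against WTCKD so did Col1a1 (0.0875), Col1a2 (0.0651), Col5a1 (0.0932) and Col6a1 (0.00184). In WTCKD against WTSHAM, Col5a3 and Col6a2 turned positive with that score (0.0381 and 0.00107) and without WTSHAM replicate 2 (0.0899 and 0.0464), and Col5a3 also without WTSHAM replicate 3 (0.0117) or WTCKD replicate 1 (0.0397). With 1 library left out the log2 difference ranged from 0.176 to 0.272 for Col5a1 to Col5a2 and from 0.0705 to 0.156 for Col6a1 to Col6a2. The cause of these shifts was not tested.

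Replicate numbers share no animal or stated batch, and same-numbered libraries deviated with correlations from -0.36 to 0.33, so the block is an alternative only.

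The number of all genes called also depended on the setting. WTCKD against WTSHAM gave 299, but 1470 by the study's threshold, 568 in DESeq2, 99 in a fit of its own 6 libraries, 515 with the atrial score and 136 to 380 with 1 library left out. WTCKD + RNLS against WTCKD gave 582, against 1874, 893 and 380, 250 with the fibroblast score, and 209 to 761 with 1 library left out. KOCKD + RNLS against KOCKD gave 2095, against 705 with gene length offsets, 2902 by the study's threshold, 3115 in its own libraries, 2751 with the atrial and 2762 with the fibroblast score, and 862 to 1476 with 1 library left out. KOCKD against WTCKD gave 0, against 732 by the study's threshold and at most 8 otherwise. The interaction gave 0, against 1981 by the study's threshold and 359 in DESeq2. WTCKD + RNLS against WTSHAM gave 1001, against 2086 by the study's threshold, 294 in its own libraries, 140 with the fibroblast score and 427 to 1495 with 1 library left out. KOCKD + RNLS against WTSHAM gave 1448, against 2459, 601 and 695 to 1540 for the study's threshold, the fibroblast score and 1 library left out.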
